A study of Mus musculus with 18 samples.

Results

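The genes described here are 40 cell cycle and proliferation genes, taken by symbol from a deposited table of FPKM values (fragments counted, scaled to gene length and library depth) that holds 27743 genes. All 40 were found. They comprise 10 genes of DNA synthesis (Pcna, Mcm2 to Mcm7, Rrm1, Rrm2 and Tyms), 7 of origin licensing, G1 control and cell cycle transcription, 22 of mitosis, and the proliferation marker Mki67. The set was chosen by gene function, and its rule uses no expression value, but earlier results of these data were known when it was chosen. RNA was measured in mouse skin flaps at day 7, and 5 of the groups had a printed mesh spacer placed beneath the flap. The stated question of the series is how topology steers cell differentiation in place. Control flaps received no treatment, and the treated groups carry the labels D15L100, D15L150, D15L200, D100L150 and D150L150. The sources name diameter and spacing as what differed between the meshes, but do not say what D and L stand for or give their units. Each of the 6 groups had 3 libraries. The sources used here do not give strain, age, sex or spacer material, and do not say whether the 3 libraries of 1 group represent separate animals.

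A dividing cell first licenses its replication origins, copies its DNA in S phase and then separates the copies in mitosis. The Mcm2 to Mcm7 proteins form the helicase that opens DNA at the fork, Pcna is the sliding clamp that holds polymerases on the template, and Rrm1 and Rrm2 form the reductase that supplies deoxynucleotides. Transcripts of these genes are made mainly around the entry into S phase under E2F factors, while those of cyclin B, its kinase Cdk1 and the spindle machinery are made mainly in G2 and mitosis, under complexes that contain B-Myb (Mybl2) and Foxm1. In skin the dividing cells are chiefly basal keratinocytes and cells of the hair follicle, and in a healing wound also fibroblasts, endothelial and immune cells.

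All 40 genes were expressed in every library, at FPKM values no lower than 1.03, and all 40 passed the filter on low values (3 or more libraries at an FPKM of 1 or higher). Libraries held 28422344 to 35327357 fragments, recovered from the steps of the FPKM values, and the gene with the fewest, Cdc6, had 158 in its lowest library, a counting error of 7.96%. The skin label was borne out by the basal keratins Krt5 and Krt14, at 429 to 2728 and 788 to 4651 FPKM, beside skeletal muscle actin Acta1 at 731 to 5972. Control 1 stood apart in its cell type markers. Its 10 basal keratinocyte markers averaged 4.45 on the log2(FPKM + 1) scale, against 5.77 and 5.60 in Control 2 and 3, and its 9 suprabasal markers 3.16 against 5.69 and 5.67. Of the members, 12 had their highest value of all 18 libraries in Control 1, 9 of them mitosis genes.

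No cell cycle gene passed the test between spacer and Control flaps. Against Control, taken over the mean of the 5 spacer groups, 0 of 40 were called by limma at an adjusted p under 0.05, where 3.56% of the 13078 genes tested were called. At an unadjusted p under 0.05 the count was also 0 of 40, against 22.4% of all genes, and voom, limma's method for counts, called 0 of 40 as well on recovered fragments, against 278 of 13078 genes. The calls over all genes rested on Control 1, since limma called 466 genes with it and 0 without it, so that the share of members called can be set against 3.56% only with Control 1 in. The differences were small. All 40 had 95% intervals inside a 2-fold change in either direction, from -0.85 at the lowest bound to 0.70 at the highest on the log2 scale. Their median difference was -0.07 and that of all genes was -0.04. Every difference from Control is given as the difference in group means of log2(FPKM + 1), followed by ± its SE from limma. An adjusted p is the limma value after Benjamini-Hochberg correction across the 13078 genes. In such whole-tissue RNA, fewer dividing cells and less transcript per dividing cell cannot be told apart.

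Within the set, the replication genes and the mitosis genes had medians on opposite sides of Control with all libraries in. The 9 Mcm, Pcna and Rrm genes all had a positive difference in the mean of the spacer groups, with a median of 0.16, and 18 of the 22 mitosis genes had a negative one, with a median of -0.10. The median of the replication genes exceeded that of the mitosis genes by 0.26, and by 0.233 to 0.344 over all alternatives run. Where each family lay relative to Control was less stable. Without Control 1 the replication median was 0.25 with all 9 genes positive, but the mitosis median was 0.01 with 11 genes positive and 11 negative. Without Control 2 these medians were 0.07 and -0.22, and without Control 3 the mitosis median was -0.16. Rescaling to TPM (the same total in every library) left 9 of 9 replication genes positive and 16 of 22 mitosis genes negative.

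The promoters of the 2 families differ in which short motifs they carry, and 5 examples are printed with those motifs in view, 2 from replication and 3 from mitosis genes. RefSeq promoters (GRCm38.p6, the build that mm10 names; 250 bases before to 50 after the first listed start site) were found for 33 of the 40 genes. Ccnd1, Tpx2, Foxm1, Aurkb, Ccna2, Mcm4 and Kif20a had no entry. Motifs were searched on both strands, and overlapping matches were each counted. The E2F type was TTCCCGC or TTGGCGC or TTCGCGC or TTGCCGC. The CHR type (cell cycle genes homology region) was TTTGAA or TTCGAA, and the third was the CCAAT box. Each printed stretch is 200 bases in the direction of transcription and ends just before the outermost annotated base of the gene. Capitals mark any match to these motifs, so that adjoining or overlapping matches form a longer run in capitals. The promoters are those of Mcm5 at chr8:75109268-75109467 (plus strand) and Mcm6 at chr1:128359706-128359905 (minus strand), which carry E2F type matches, and of Cdc20 at chr4:118437344-118437543 (minus strand), Ube2c at chr2:164769729-164769928 (plus strand) and Top2a at chr11:99024200-99024399 (minus strand), which carry CHR type and CCAAT matches. Mcm5 and Top2a are shown up to 41 and 10 bases before the listed start, so matches nearer to it are not in print.
Mcm5: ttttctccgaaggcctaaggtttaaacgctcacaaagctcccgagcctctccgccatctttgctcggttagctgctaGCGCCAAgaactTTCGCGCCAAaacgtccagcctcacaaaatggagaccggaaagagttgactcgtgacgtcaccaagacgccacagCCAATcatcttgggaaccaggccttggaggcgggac
Mcm6: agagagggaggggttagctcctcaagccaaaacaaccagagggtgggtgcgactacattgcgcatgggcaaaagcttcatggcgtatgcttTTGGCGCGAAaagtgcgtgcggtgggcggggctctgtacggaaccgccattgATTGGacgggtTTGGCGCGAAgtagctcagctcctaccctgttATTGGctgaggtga
Cdc20: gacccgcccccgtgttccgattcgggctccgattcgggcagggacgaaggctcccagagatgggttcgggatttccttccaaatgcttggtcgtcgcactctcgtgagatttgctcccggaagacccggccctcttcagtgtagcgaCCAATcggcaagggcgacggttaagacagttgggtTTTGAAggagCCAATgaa
Ube2c: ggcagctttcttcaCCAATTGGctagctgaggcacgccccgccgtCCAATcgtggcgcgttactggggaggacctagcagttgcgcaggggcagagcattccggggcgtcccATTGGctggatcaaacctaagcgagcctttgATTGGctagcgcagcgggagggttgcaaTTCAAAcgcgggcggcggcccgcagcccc
Top2a: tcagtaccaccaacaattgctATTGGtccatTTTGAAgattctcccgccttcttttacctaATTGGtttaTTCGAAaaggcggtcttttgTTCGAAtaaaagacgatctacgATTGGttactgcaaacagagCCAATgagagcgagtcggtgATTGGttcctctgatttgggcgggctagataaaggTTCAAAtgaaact

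The E2F type was found in 6 of 8 replication promoters (Mcm3, Mcm5, Mcm6, Mcm7, Rrm1 and Rrm2) and in 2 of 18 mitosis promoters (Cdk1 and Ccnb1), against 9.69% of all 27025 promoters of this length. The CHR type was found in 14 of 18 mitosis promoters, in 2 of 8 replication promoters (Mcm2 and Mcm7), and in 19.4% of all promoters. A CCAAT box stood in 16 of 18 mitosis promoters and in 8 of 8 replication promoters, against 37.9% of all, and in none of the 5 promoters of the licensing, G1 and transcription factor group. In Mcm6 the capitals TTGGCGCGAA hold an E2F type match on each strand, at 109 and again at 46 bases before the start. Ube2c had 1 CHR type match, 29 bases before the start, with 6 CCAAT boxes upstream of it, the first of them outside the printed stretch. Top2a had 4 CHR type matches and 6 CCAAT boxes. Its first CCAAT box, 227 bases before the start, is also outside the printed stretch. Mki67 carried all the types, with 2 CHR type, 3 CCAAT and 1 E2F type matches. A match is a string of letters in this window and no measurement of binding.

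By FPKM, which is scaled to gene length, Pcna was the most abundant of the set, at a median of 94.0 over the 18 libraries and between 74.6 and 137. It was followed by Ube2c at a median of 34.1, Ccnd1 at 25.2, Rrm2 at 24.7 and Rrm1 at 22.3. The ranges of Ube2c, Ccnd1, Rrm2 and Rrm1 over the libraries overlapped, so their order did not hold in every library. Cdc6 was lowest at 1.33, next to Cenpf at 1.69 and Mybl2 at 2.08. The ratio of the highest to the lowest library ran from 1.52 for Rrm1 to 3.02 for Birc5. Mitosis genes thus included the most variable members, with Ube2c at 2.83, Ttk at 2.71, Ccnb1 at 2.62, Ccnb2 at 2.60 and Ccna2 at 2.58.

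**Figure D1:**
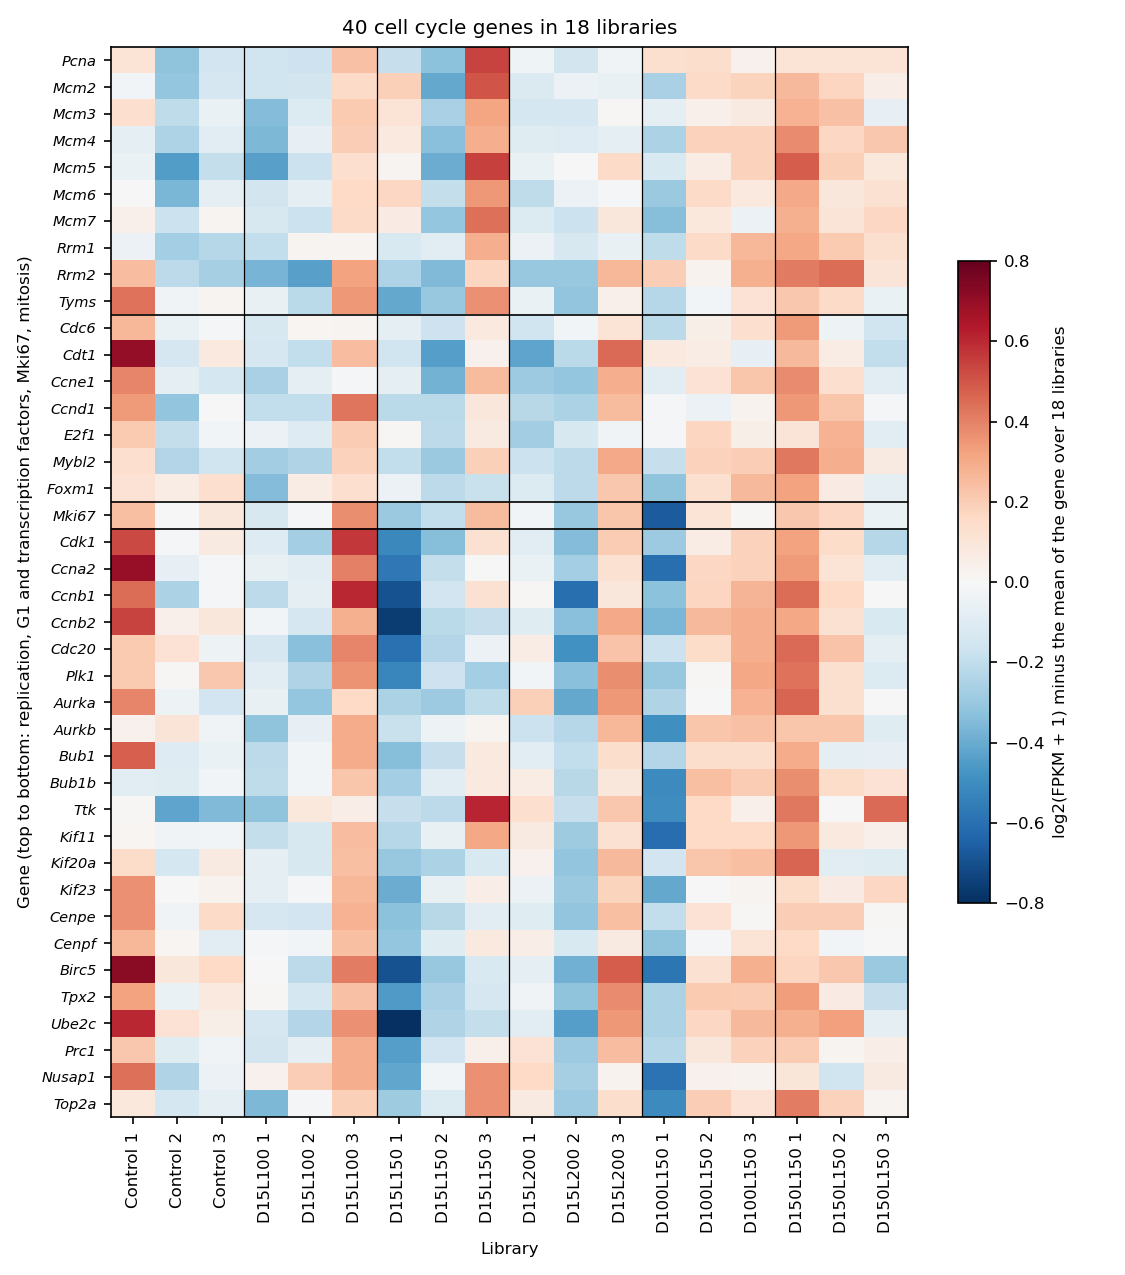
log2(FPKM + 1) of each of the 40 genes minus the mean of that gene over the 18 libraries (colour), with libraries in columns by group and replicate and genes in rows by role. Control 1 is the highest library for 9 of 22 mitosis genes, D15L150 1 is the lowest library for 11 of them, and D15L150 3 is the highest library for 6 of 9 Mcm, Pcna and Rrm genes.

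In the following, the 3 values of a group stand in the order of its replicates 1, 2 and 3. Mki67, a protein of the surface of mitotic chromosomes used to mark dividing cells (chromosome 7, 135689784 to 135716450), lay at 13.0, 10.9 and 11.7 FPKM in Control, 9.86, 10.8 and 14.4 in D15L100, 8.67, 9.35 and 13.1 in D15L150, 10.7, 8.64 and 12.9 in D15L200, 6.48, 11.8 and 10.95 in D100L150 and 12.8, 12.3 and 10.4 in D150L150. Its groups overlapped throughout, with the lowest value in D100L150 1 and the highest in D15L100 3. The difference of the spacer mean from Control was -0.13 ± 0.16 (SE), adjusted p = 0.659, with an interval of -0.48 to 0.22. Among single groups it ran from -0.29 ± 0.21 in D100L150 to 0.00 ± 0.21 in D150L150.

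Among the replication genes, the values nearest to the threshold were those of Rrm1 and Mcm5. Rrm1, the large subunit of ribonucleotide reductase (chromosome 7, 102441695 to 102469771), lay at 22.3, 18.9 and 19.6 FPKM in Control, 20.0, 23.4 and 23.4 in D15L100, 21.1, 21.7 and 28.5 in D15L150, 22.3, 21.0 and 22.1 in D15L200, 19.9, 25.8 and 27.9 in D100L150 and 28.8, 26.9 and 25.3 in D150L150. All 3 D150L150 libraries were above all 3 Control libraries, and the other groups overlapped Control. Its difference was 0.22 ± 0.10 for the spacer mean (adjusted p = 0.229, interval from just below 0 to 0.44) and 0.40 ± 0.13 for D150L150 (adjusted p = 0.124). Mcm5, a helicase subunit (chromosome 8, 75109468 to 75128439), whose promoter is printed above, lay at 13.1, 9.68 and 11.8 FPKM in Control, 9.79, 11.96 and 14.99 in D15L100, 13.8, 10.05 and 20.3 in D15L150, 13.0, 13.6 and 15.2 in D15L200, 12.4, 14.2 and 15.6 in D100L150 and 19.4, 15.6 and 14.5 in D150L150. Again only D150L150 lay wholly above Control, and D15L150 spanned nearly the whole range, from 10.05 in replicate 2 to 20.3 in replicate 3. The difference was 0.27 ± 0.16 for the spacer mean (adjusted p = 0.330) and 0.48 ± 0.21 for D150L150 (adjusted p = 0.209).

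Mcm6, another helicase subunit, lay at 15.3, 11.6 and 14.5 FPKM in Control, 13.7, 14.5 and 17.2 in D15L100, 17.3, 13.3 and 19.7 in D15L150, 13.2, 14.8 and 15.1 in D15L200, 12.3, 17.1 and 16.2 in D100L150 and 19.2, 16.4 and 16.7 in D150L150. All D150L150 libraries were above all Control libraries. Its difference was 0.18 ± 0.12 for the spacer mean, 0.32 ± 0.15 in D150L150, 0.25 ± 0.15 in D15L150 and 0.13 ± 0.15 in D15L100. Pcna (chromosome 2, 132249286 to 132253180) lay at 102, 75.0 and 84.3 FPKM in Control, 84.0, 83.6 and 111 in D15L100, 82.4, 74.6 and 137 in D15L150, 91.6, 84.8 and 91.8 in D15L200, 103, 104 and 96.1 in D100L150 and 101, 101 and 102 in D150L150. The D150L150 libraries lay close together, at 101 ± 0.14 FPKM (SD, n = 3), while D15L150 held both the lowest and the highest library of the series, and the difference of the spacer mean was 0.14 ± 0.14. Rrm2, the small reductase subunit (chromosome 12, 24708254 to 24714146), lay at 28.1, 20.3 and 19.5 FPKM in Control, 18.003, 17.2 and 29.7 in D15L100, 19.7, 18.3 and 26.7 in D15L150, 18.9, 18.9 and 28.5 in D15L200, 27.1, 24.1 and 28.9 in D100L150 and 31.8, 32.4 and 25.3 in D150L150. Control 1 lay inside the D150L150 range, so the groups overlapped, and the difference was 0.09 ± 0.17 for the spacer mean. Mcm2, Mcm3, Mcm4 and Mcm7, the other helicase subunits described, had differences of 0.19 ± 0.15, 0.05 ± 0.12, 0.16 ± 0.13 and 0.04 ± 0.13. Mcm7 lay at 16.2, 13.9 and 16.0 FPKM in Control, 14.3, 13.8 and 17.6 in D15L100, 16.5, 12.5 and 21.7 in D15L150, 14.5, 13.9 and 16.8 in D15L200, 12.2, 16.8 and 15.2 in D100L150 and 19.4, 16.98 and 17.8 in D150L150, with D150L150 wholly above Control. Tyms, which makes thymidylate and was left out of the replication median since it is neither an Mcm, Pcna nor Rrm gene, had -0.17 ± 0.16. It lay at 4.99, 3.35 and 3.497 FPKM in Control, 3.25, 2.81 and 4.64 in D15L100, 2.33, 2.59 and 4.71 in D15L150, 3.27, 2.56 and 3.55 in D15L200, 2.78, 3.35 and 3.80 in D100L150 and 4.13, 3.92 and 3.26 in D150L150, with Control 1 highest of all libraries.

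**Figure D2:**
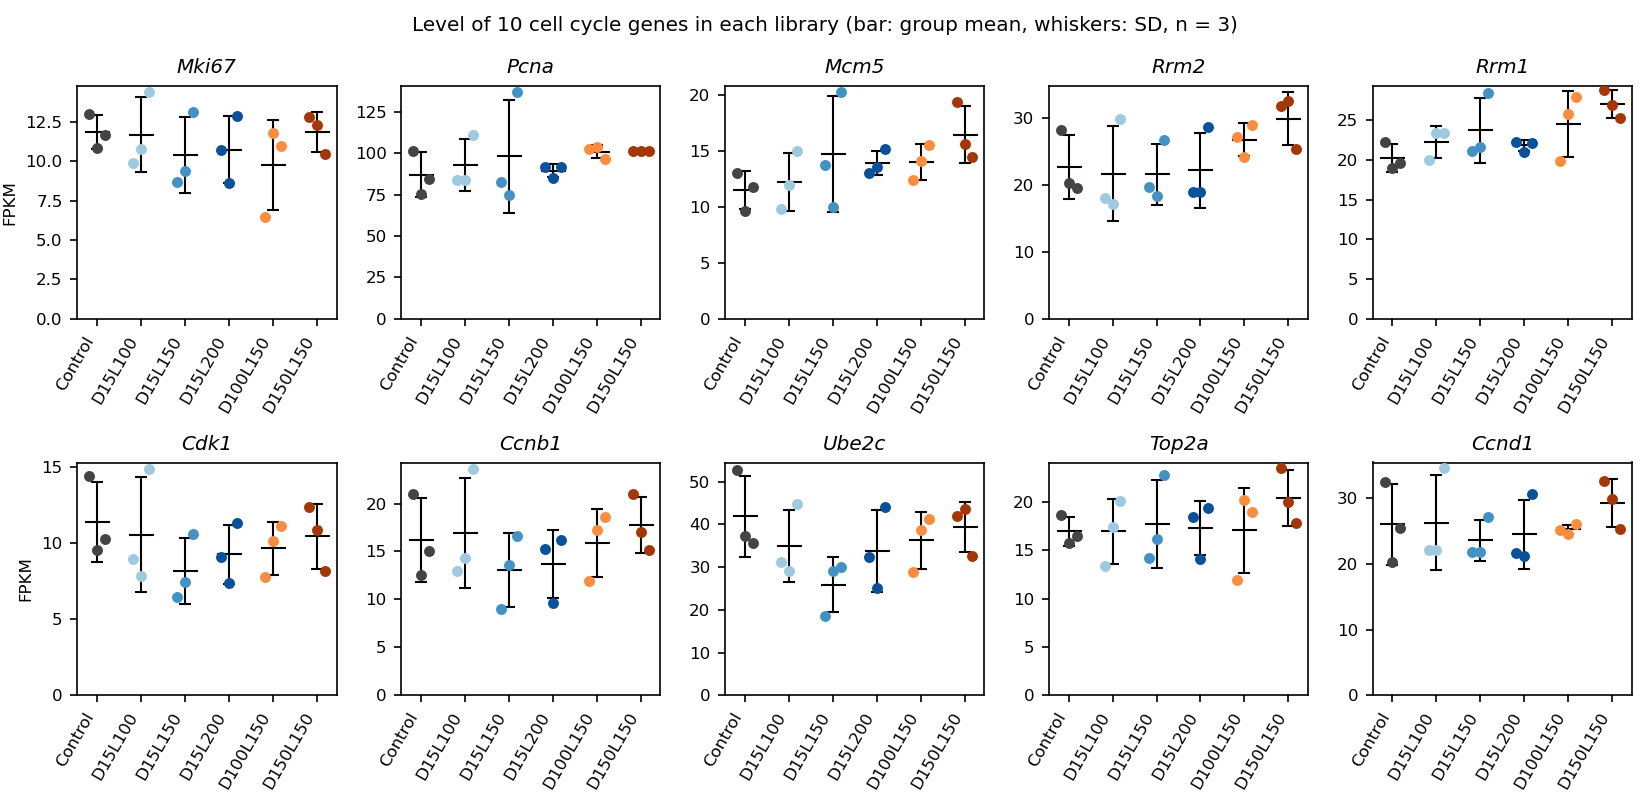
FPKM of 10 cell cycle genes in each library (points), with the mean of each group (bar) and its SD (whiskers, n = 3). For Rrm1 and Mcm5 the 3 D150L150 points sit above all Control points, and for Ube2c the 3 D15L150 points sit below them.

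The 7 genes of licensing, G1 control and transcription had a median of -0.07 in the spacer mean, 2 positive and 5 negative. Ccnd1, the D-type cyclin that links growth signals to the cell cycle (chromosome 7, 144929931 to 144939831), lay at 32.5, 20.2 and 25.4 FPKM in Control, 22.1, 22.1 and 34.6 in D15L100, 21.8, 21.8 and 27.2 in D15L150, 21.7, 21.2 and 30.6 in D15L200, 25.1, 24.6 and 25.99 in D100L150 and 32.6, 29.8 and 25.3 in D150L150. No group lay apart from Control, and the difference was -0.01 ± 0.15. Ccne1, the E-type cyclin of S phase entry, had -0.07 ± 0.16. The licensing factors Cdt1 and Cdc6 had -0.26 ± 0.19 and -0.08 ± 0.11, and Control 1 was the highest library for Cdt1, at 14.3 FPKM against 7.56 and 8.92 in Control 2 and 3. E2f1, an activator of S phase genes, had 0.00 ± 0.10 and Mybl2 0.11 ± 0.14. Foxm1, the forkhead activator of mitosis genes, had -0.12 ± 0.13.

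Among the mitosis genes, Cdk1 and its cyclin partners had libraries of all groups interleaved, except Ccnb2 in D15L150. Cdk1 (chromosome 10, 69335146 to 69352912) lay at 14.4, 9.58 and 10.3 FPKM in Control, 8.95, 7.86 and 14.9 in D15L100, 6.47, 7.44 and 10.6 in D15L150, 9.11, 7.41 and 11.3 in D15L200, 7.75, 10.2 and 11.1 in D100L150 and 12.4, 10.8 and 8.15 in D150L150. Its highest libraries were D15L100 3 and Control 1, its lowest D15L150 1, and the difference of the spacer mean was -0.23 ± 0.19. Ccnb1, a B-type cyclin (chromosome 13, 100778739 to 100786486), lay at 21.0, 12.6 and 15.04 FPKM in Control, 13.0, 14.3 and 23.5 in D15L100, 8.97, 13.6 and 16.6 in D15L150, 15.3, 9.65 and 16.2 in D15L200, 11.9, 17.2 and 18.5 in D100L150 and 21.0, 17.1 and 15.2 in D150L150. Every spacer group overlapped Control, and the difference was -0.07 ± 0.22. Top2a, the topoisomerase that disentangles DNA before its separation (chromosome 11, 98992947 to 99024199), lay at 18.6, 15.7 and 16.5 FPKM in Control, 13.4, 17.4 and 20.1 in D15L100, 14.2, 16.1 and 22.8 in D15L150, 18.4, 14.1 and 19.4 in D15L200, 11.98, 20.2 and 19.0 in D100L150 and 23.5, 20.1 and 17.8 in D150L150. Its difference was 0.05 ± 0.16, one of the 4 positive values in this family with Bub1b, Ttk and Kif11.

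Ube2c, the ubiquitin-conjugating enzyme of the anaphase-promoting complex (chromosome 2, 164769929 to 164772902), lay at 52.8, 37.3 and 35.6 FPKM in Control, 31.2, 29.1 and 44.6 in D15L100, 18.6, 29.0 and 30.1 in D15L150, 32.3, 25.1 and 44.1 in D15L200, 28.8, 38.8 and 41.3 in D100L150 and 42.1, 43.5 and 32.6 in D150L150. The 3 D15L150 libraries were all below the 3 Control libraries, at a mean of 25.9 ± 6.33 against 41.9 ± 9.44 FPKM (SD, n = 3). Ccnb2, the other B-type cyclin (chromosome 9, 70407689 to 70421554), lay at 27.7, 19.3 and 20.0 FPKM in Control, 18.4, 16.9 and 23.0 in D15L100, 10.6, 16.0 and 16.3 in D15L150, 17.4, 14.6 and 23.2 in D15L200, 14.3, 22.5 and 23.1 in D100L150 and 23.4, 20.4 and 17.1 in D150L150. As for Ube2c, Control 1 was the highest and D15L150 1 the lowest of all libraries, and D15L150 lay wholly below Control. Birc5, a subunit of the chromosomal passenger complex also known as survivin, lay at 14.4, 8.99 and 9.46 FPKM in Control, 8.37, 7.10 and 11.4 in D15L100, 4.78, 6.59 and 7.60 in D15L150, 7.91, 6.18 and 12.1 in D15L200, 5.29, 9.18 and 10.4 in D100L150 and 9.57, 9.88 and 6.64 in D150L150. It had the largest negative difference of the set in the spacer mean, -0.39 ± 0.22 (adjusted p = 0.303), which was -0.19 without Control 1.

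Ttk, a kinase of the spindle checkpoint, was the member with the largest positive difference, 0.31 ± 0.18 in the spacer mean (adjusted p = 0.339). It lay at 3.28, 2.19 and 2.34 FPKM in Control, 2.40, 3.51 and 3.41 in D15L100, 2.75, 2.68 and 5.50 in D15L150, 3.69, 2.76 and 3.94 in D15L200, 2.03, 3.75 and 3.38 in D100L150 and 4.70, 3.25 and 4.83 in D150L150, so that Control 1 overlapped D150L150 at its lower end. Cenpe, a kinesin of the kinetochore, lay at 3.503, 2.42 and 2.89 FPKM in Control, 2.18, 2.14 and 3.24 in D15L100, 1.78, 2.00 and 2.29 in D15L150, 2.27, 1.81 and 3.13 in D15L200, 2.06, 2.80 and 2.52 in D100L150 and 3.01, 3.01 and 2.52 in D150L150. Kif23, a kinesin of the central spindle, lay at 7.40, 5.50 and 5.65 FPKM in Control, 5.20, 5.46 and 6.83 in D15L100, 3.94, 5.26 and 5.76 in D15L150, 5.31, 4.29 and 6.37 in D15L200, 3.90, 5.50 and 5.62 in D100L150 and 6.21, 5.83 and 6.30 in D150L150. Both had Control 1 as their highest library, and their differences in the spacer mean were -0.20 ± 0.12 and -0.16 ± 0.13. Bub1b, a checkpoint protein, lay at 6.35, 6.30 and 6.70 FPKM in Control, 5.78, 6.70 and 8.14 in D15L100, 5.48, 6.35 and 7.27 in D15L150, 7.17, 5.70 and 7.33 in D15L200, 4.49, 8.26 and 7.99 in D100L150 and 9.14, 7.65 and 7.47 in D150L150, with all D150L150 libraries above the narrow Control range and D100L150 1 lowest of all. The other mitosis genes had differences between -0.25 (Ccna2) and 0.02 (Kif11) in the spacer mean. These were Ccna2, Cdc20, Plk1, Aurka, Aurkb, Bub1, Kif11, Kif20a, Cenpf, Tpx2, Prc1 and Nusap1.

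**Figure D3:**
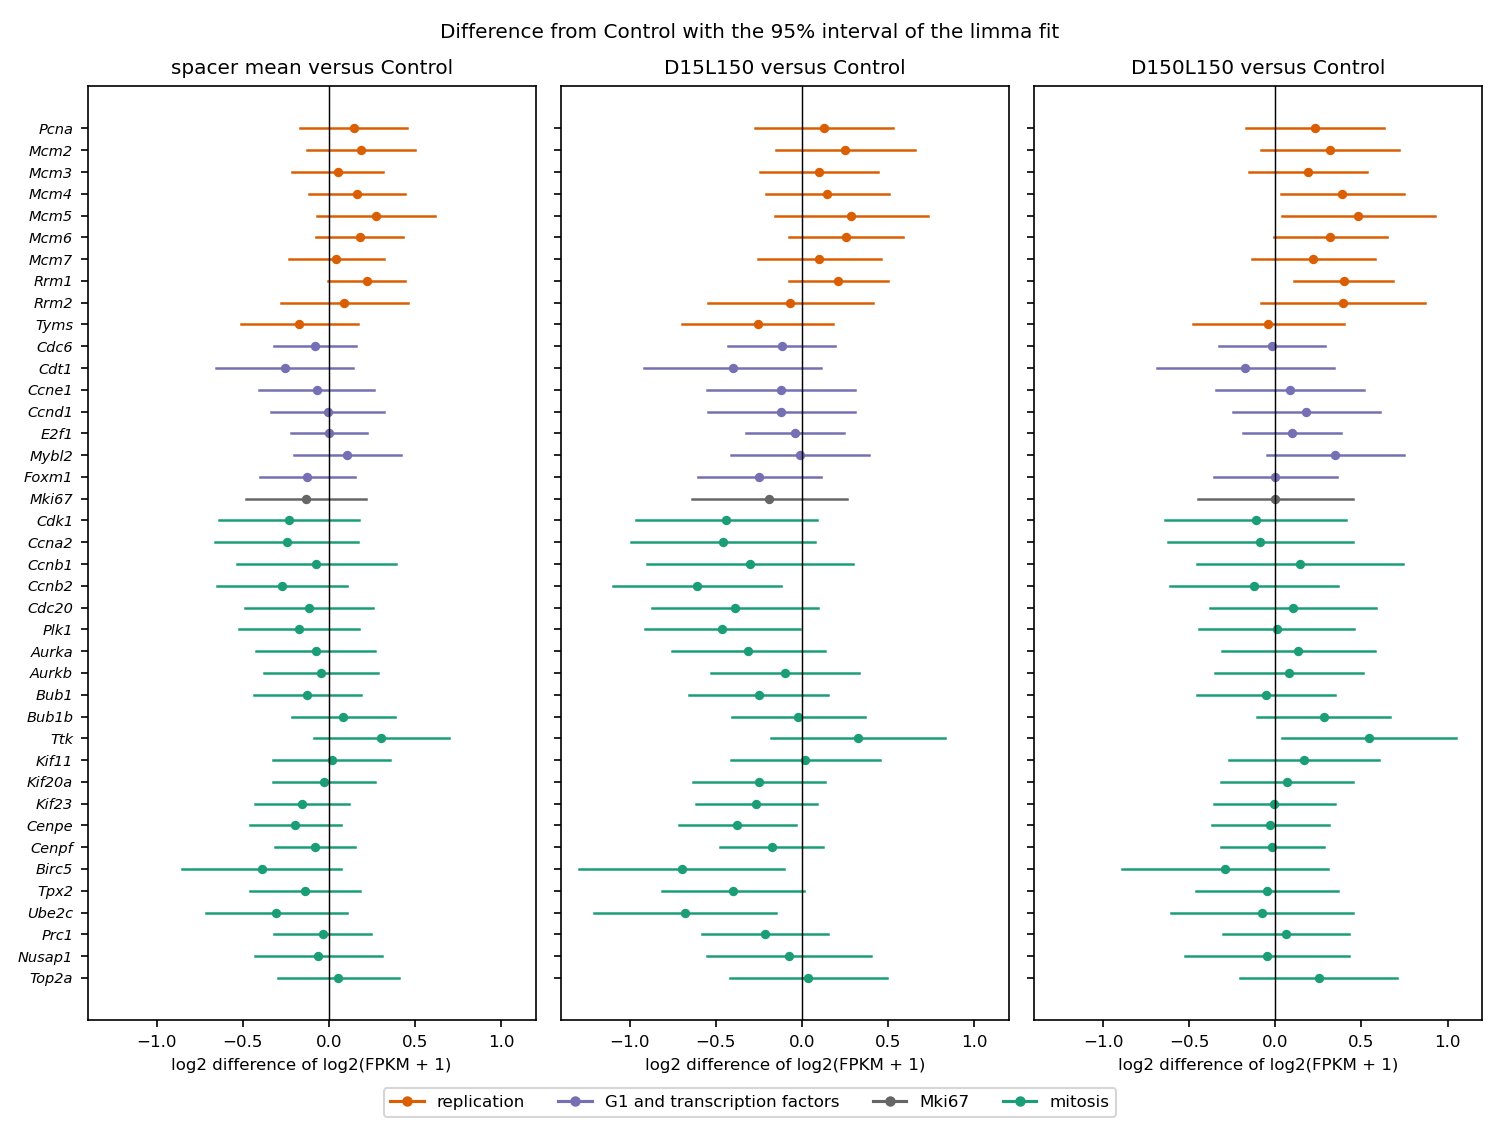
Difference from Control of each of the 40 genes on the log2(FPKM + 1) scale (points) with its 95% interval from the limma fit (lines), for the mean of the 5 spacer groups, D15L150 and D150L150, coloured by role. In D15L150 19 of 22 mitosis genes lie left of 0, and in D150L150 all 9 Mcm, Pcna and Rrm genes lie right of it.

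Among the 5 single groups, D15L150 had the lowest median of the mitosis genes. Limma called 0 of 40 members against Control, as it did 0% of all genes, and voom also called 0. The 0 over all genes depended on which libraries entered, with 239 genes called without D15L100 2, 218 without D15L100 3 and 45 without D15L150 1, and still 0 members. At an unadjusted p under 0.05, 5 members were lower, Ube2c, Ccnb2, Birc5, Cenpe and Plk1, or 5 of 40 against 19.8% of all genes in either direction. Ube2c differed by -0.68 ± 0.25 (adjusted p = 0.156), Ccnb2 by -0.61 ± 0.23 (adjusted p = 0.164), Birc5 by -0.70 ± 0.28 (adjusted p = 0.188), Cenpe by -0.38 ± 0.16 (adjusted p = 0.209) and Plk1, a mitotic kinase, by -0.46 ± 0.21 (adjusted p = 0.243). Of the 22 mitosis genes 19 were negative, with a median of -0.28, and of the 9 replication genes 8 were positive, with a median of 0.15. All 3 libraries were below all Control libraries for 9 members, Foxm1, Ccnb2, Cdc20, Plk1, Aurka, Cenpe, Birc5, Tpx2 and Ube2c, which is 22.5% of the set, where 14% of all genes did so. In the other direction it was 0 members, against 12.4% of all genes.

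The 9 members that lay wholly below Control held 8 of 22 mitosis genes and 0 of 9 replication genes. The same 9 remained without Control 1, when 18.4% of all genes did so, but the median of the mitosis genes was then -0.15. They also remained without D15L150 1, as 22.5% of the set, which was hardly more than the 22.01% of all genes. The mitosis median was -0.18 in that case. Under TPM scaling 7 members lay wholly below Control against 7.55% of all genes. Without D15L150 3 it was 22 members, 17 of them mitosis genes, against 21.98% of all genes, and the replication median was 0.01. In this group the summed FPKM of 7 endothelial markers lay at 102 to 160, below the 175 to 622 of Control, with 0 of 7 called by limma, 7 of 7 at an unadjusted p under 0.05 and a median of -1.18. Basal keratinocyte markers summed to 3183 to 7508 against 1302 to 3707, with 0 of 10 called, 4 at an unadjusted p under 0.05 and a median of 0.81. Suprabasal keratinocyte markers summed to 2791 to 7244 against 241 to 1357, with 0 of 9 called, 9 at an unadjusted p under 0.05 and a median of 3.05. Wound-activated keratinocyte markers summed to 4560 to 7668 against 2373 to 6870, with 0 of 8 called, 6 at an unadjusted p under 0.05 and a median of 1.47. No marker of these 4 lists was at 0 in any library, and their part in the result was not tested. D15L150 2 also held the root sheath keratin Krt71, at 18.8 FPKM. The 11 hair matrix and root sheath markers summed to 64.1 FPKM in this library, against 11.8 and 16.0 in D15L150 1 and 3. Of the 5 that passed the filter, limma called 0 in D15L150, with 3 at an unadjusted p under 0.05.

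D150L150 had the highest median of the replication genes. Limma called 0 of 40 members, against 2.42% of all genes, and voom called 0, against 183 genes. The 317 genes behind this share became 2 without Control 1, 30 without D150L150 3 and 0 without D150L150 1. At an unadjusted p under 0.05, 4 members were higher, Rrm1, Mcm5, Mcm4 and Ttk, or 4 of 40 members against 20.4% of all genes. Mcm4 differed by 0.39 ± 0.17 (adjusted p = 0.209) and Ttk by 0.54 ± 0.24 (adjusted p = 0.211), beside the values of Rrm1 and Mcm5 above. All 9 replication genes were positive, with a median of 0.32, and 11 of 22 mitosis genes were positive and 11 negative, with a median of 0.00, where all genes had a median of 0.00. The 3 libraries lay above all Control libraries for 8 members, or 20% of the set, against 14.3% of all genes. These were Mcm2, Mcm4, Mcm5, Mcm6, Mcm7 and Rrm1, 6 of 9 replication genes, and Bub1b and the spindle motor Kif11, 2 of 22 mitosis genes. In the other direction it was 0 members, against 12.1% of all genes.

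These counts in D150L150 moved with single libraries. Without Control 1, 17 members lay wholly above Control, 8 replication and 8 mitosis genes and Mybl2, against 21.2% of all genes, and 21 of 22 mitosis genes had a positive difference with a median of 0.13. Without D150L150 3 it was 14 members, 8 replication and 5 mitosis genes, against 18.9% of all genes. Without Control 3 it was 8 members, or 20% of the set, which was no more than the 20.3% of all genes. The replication median stayed between 0.24 and 0.39 over all alternatives. Basal keratinocyte markers summed to 6109 to 7444 FPKM here against 1302 to 3707 in Control, with 2 of 10 called higher and a median of 1.35, and their part in the result was not tested. Wound-activated keratinocyte markers were called higher for 6 of 8 and suprabasal ones for 1 of 9, where 2.42% of all genes were called. Over all genes only 2 calls remained without Control 1. Endothelial markers had 0 of 7 called and a median of -0.83, with 3 at an unadjusted p under 0.05 in limma, against 20.4% of all genes. The part of these lists was not tested. Skeletal muscle markers summed to 1998 to 4031 FPKM against 7808 to 17690, with 0 of 11 called by limma, 5 at an unadjusted p under 0.05 and a median of -1.93. With a covariate for skeletal muscle markers in the model, Rrm1 differed by 0.39, Mcm5 by 0.35 and Ttk by 0.39, and the replication genes exceeded the mitosis genes by 0.27 in place of 0.32.

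The other 3 groups had no member wholly outside the Control range. In D15L100 limma called 0 of 40 members and 0% of all genes, voom called 0, and 0 members against 3.3% of all genes had an unadjusted p under 0.05. None lay wholly above or below Control, where 2.1% and 3.97% of all genes did, and the smallest p values were those of Rrm1 and Mcm6 among replication genes and of Cenpe and Ube2c among mitosis genes. In D15L200 0 members were called against 1.56% of all genes, and 0 against 17.3% at an unadjusted p under 0.05. Limma's 204 calls over all genes there became 0 without Control 1, without Control 2 and without any 1 library of D15L200, and voom called 10 genes and 0 members. The shares of all genes wholly above and below Control were 11.2% and 13.8%. In D100L150 the same count was 0 against 1.38% (181 genes, against 89 by voom, 40 without Control 2, and 0 without Control 1 or without D100L150 1), 0 members by voom, and 0 against 21.1% unadjusted, with 11% and 10.8% of all genes wholly above and below. The highest and lowest members there were Mcm5 at 0.27 and Birc5 at -0.38. Birc5 was at 5.29 FPKM in D100L150 1 against 9.18 and 10.4 in the other libraries of the group, and Rrm1 had the smallest p, with a difference of 0.25.

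In each of the 5 groups the replication median exceeded the mitosis median, by 0.15 in D15L100, 0.43 in D15L150, 0.17 in D15L200, 0.26 in D100L150 and 0.32 in D150L150. These comparisons share the Control libraries. The difference was smallest without D15L200 2, when it was 0.04 in D15L200, and without D15L100 2, when it was 0.08 in D15L100. To see this in single libraries, the mean log2(FPKM + 1) of the 22 mitosis genes was subtracted from that of the 9 replication genes. It came to 0.78, 0.83 and 0.93 in Control, 0.93, 1.02 and 0.93 in D15L100, 1.504, 0.94 and 1.40 in D15L150, 0.93, 1.26 and 0.87 in D15L200, 1.29, 1.04 and 1.01 in D100L150 and 1.06, 1.15 and 1.18 in D150L150. All 3 libraries of D100L150 and of D150L150 lay above all 3 of Control, D15L150 did so too but only narrowly in replicate 2, and D15L100 and D15L200 overlapped Control. The widest gap was in D15L150 1, where 11 mitosis genes had their lowest value of all libraries, and the narrowest was in Control 1.

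**Figure D4:**
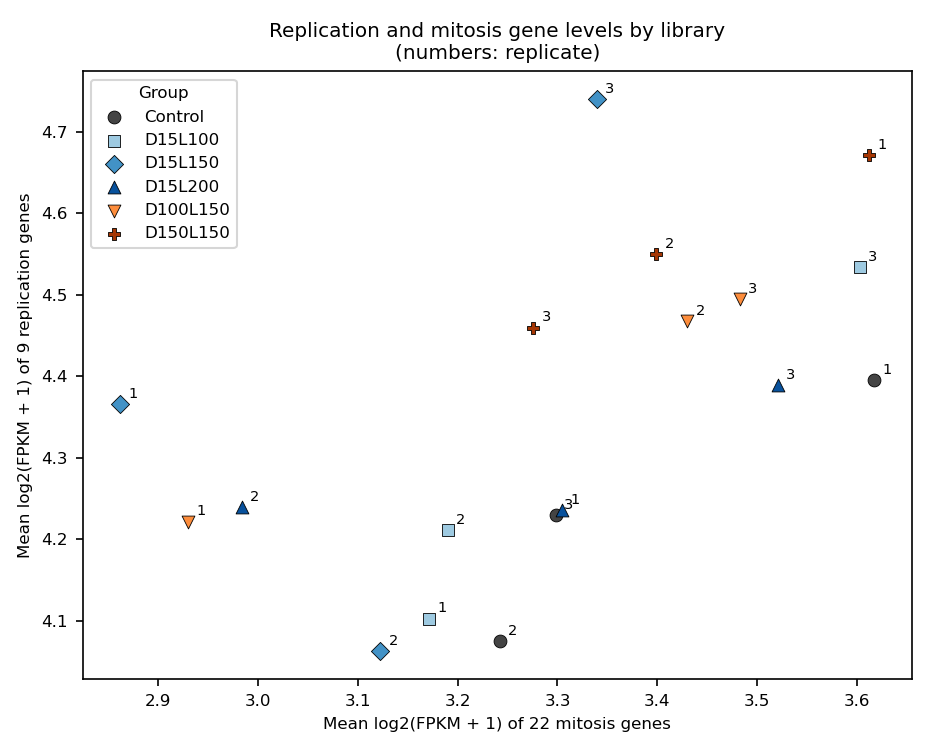
Mean log2(FPKM + 1) of the 9 replication genes (vertical axis) against that of the 22 mitosis genes (horizontal axis) in each library, with the marker giving the group and the number the replicate. The libraries of D150L150 lie above those of Control at like mitosis levels, and D15L150 1 and 3 lie farthest toward the upper left, with gaps of 1.504 and 1.40.

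Spacer groups were also compared with each other, which does not use Control. Over D15L100, D15L150 and D15L200, which differ in the second label number, a moderated F test called 0 of 40 members against 0% of all genes, and 0 members had an unadjusted p under 0.05 against 2.89% of all genes. Ccnb2 had the smallest p, with an adjusted p of 0.993 in limma. Over D15L150, D100L150 and D150L150, which differ in the first number, 0 of 40 were called against 0% of all genes, with 0 unadjusted against 5.74%. Ube2c had the smallest p there, with an adjusted p of 0.743 in limma and group means of 25.9 ± 6.33, 36.3 ± 6.64 and 39.4 ± 5.92 FPKM (SD, n = 3). Voom called 0 members in both tests.

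Other genes of the same pathways, in lists drawn up by function, gave the wider picture. Of 40 further replication genes, limma and voom called 0 in every comparison. In the spacer mean 15 were positive and 25 negative with a median of -0.04, where all genes also had -0.04. Of the 40, 1 had an unadjusted p under 0.05 in limma, against 22.4% of all genes. In D150L150 28 were positive and 12 negative, with a median of 0.07. The other groups leaned the other way. D15L100 had 9 positive and 31 negative, D15L150 14 and 26, D15L200 4 and 36, and D100L150 10 and 30. Their medians were -0.04, -0.07, -0.117 and -0.08. Those of the further mitosis genes in the same groups were -0.08, -0.21, -0.125 and -0.14. The further replication genes thus had the higher median in each, but by less than in the set, and hardly so in D15L200. Their excess was also smaller than in the set in D150L150 (0.07 against 0.03) and in the spacer mean (-0.04 against -0.11). Gins3, of the GINS complex that activates the helicase, differed by -0.29 ± 0.11 in the spacer mean (adjusted p = 0.155 in limma) and the initiation kinase gene Cdc7 by -0.30 ± 0.14. Of 53 further mitosis genes limma and voom called 0. In the spacer mean 43 were negative with a median of -0.11, and 0 had an unadjusted p under 0.05, against 22.4% of all genes. In D15L150 50 were negative with a median of -0.21. There 6 of the 53 had an unadjusted p under 0.05, where 19.8% of all genes did. The kinesin Kifc1 differed there by -0.42 ± 0.14 (adjusted p = 0.137 in limma), at 5.33, 5.65 and 5.65 FPKM against 8.15, 7.19 and 7.91 in Control, and the centromeric histone Cenpa by -0.55 ± 0.21. In D150L150 30 of the 53 were positive and 23 negative, with a median of 0.03.

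The genes nearest to the threshold were regulators of G1. Of 19 cell cycle inhibitors tested limma and voom called 0, with 3 at an unadjusted p under 0.05 in the spacer mean, 4 in D15L150 and 3 in D150L150, where 22.4%, 19.8% and 20.4% of all genes had one. The list was split, with 10 positive and 9 negative and a median of 0.00 in the spacer mean, from -0.86 to 1.03. Its lowest value in D15L150 was -1.25 ± 0.54 for Gadd45a, a stress-induced inhibitor (adjusted p = 0.218 in limma). Cdkn2b, an inhibitor of the cyclin D kinases, had the smallest p, with differences of 1.03 ± 0.31 in the spacer mean (adjusted p = 0.0784 in limma) and 1.43 ± 0.40 in D150L150 (adjusted p = 0.0722 in limma). The latter was 0.0493 without D15L100 2, the one call among these lists in any alternative, and 0.0493 to 0.296 over all. It lay at 1.07, 3.33 and 3.08 FPKM in Control, 3.65, 7.83 and 2.80 in D15L100, 5.39, 6.59 and 8.01 in D15L150, 8.53, 5.90 and 3.86 in D15L200, 3.40, 6.92 and 4.35 in D100L150 and 7.49, 4.88 and 13.5 in D150L150. D150L150 lay wholly above Control, as did D15L150, D15L200 and D100L150, and D15L100 overlapped it. Of 12 further G1 cyclins, kinases and activators both called 0, with 3, 3 and 2 at an unadjusted p under 0.05 in those comparisons, against the same shares of all genes. In the spacer mean 9 of the 12 were negative, with a median of -0.14. Cdk6, a kinase partner of D-type cyclins, had 0.44 ± 0.13 in the spacer mean (adjusted p = 0.0768 in limma) and 0.58 ± 0.17 in D150L150, and lay at 2.39, 3.5003 and 3.54 FPKM in Control, 3.14, 5.29 and 4.13 in D15L100, 4.13, 3.68 and 5.20 in D15L150, 3.62, 4.35 and 4.55 in D15L200, 5.47, 4.87 and 5.68 in D100L150 and 5.14, 6.25 and 4.21 in D150L150. All groups but D15L100 lay wholly above Control for Cdk6. Ccnd3, another D-type cyclin, was lower by value, with -0.50 ± 0.15 in D15L150 (adjusted p = 0.114 in limma), where its libraries lay at 39.5, 38.8 and 36.8 FPKM against 67.4, 49.2 and 49.1 in Control. The inhibitor Cdkn1b had -0.32 ± 0.13 in the spacer mean (adjusted p = 0.159 in limma).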

How the data were processed

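Per the labels' protocols, TRIzol was used for RNA and a VAHTS V6 kit for the libraries. The authors deposited FPKM values for 18 libraries. The tools DESeq2, HTSeq, HISAT2, fastp and R 3.2.0 and the build mm10 are listed, without roles, in the submitters' processing notes. Neither annotation nor use of strand is stated there.

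Groups and replicate numbers came from the titles and group labels. The filter kept 13078 of 27743 genes, those where 3 or more libraries reached an FPKM of 1. A limma model (limma 3.58.1, R 4.3.3; trend and robust moderation) with 1 mean per group was fitted to log2(FPKM + 1) of all 18 libraries. The pseudocount of 1 understates differences of low genes. Genes were called at a Benjamini-Hochberg adjusted p under 0.05 within each comparison. Fragments for voom were recovered from the steps of the FPKM values, which came out whole (tolerance 0.0001 fragments) in 27743 of 27743 genes. Replicates of a group differed by a chi-square per gene of 57.8 to 338, so none was the same library sequenced again. Whether they came from separate animals cannot be told from this. P-values measure the spread between libraries, which may be technical.

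Members and lists were chosen with earlier results of these data known, so no p is given for a family. All members could be named. Values by library are given for 8 members fixed by name and, in each comparison, for the 2 replication and 2 mitosis members with the smallest p, and up to 4 genes of each other list by p. Sequences and positions are from RefSeq GRCm38.p6. The fit was tested on simulated data. Alternatives were a pseudocount of 0.1, no filter, quantile scaling, TPM, a replicate block, voom, the skeletal muscle level as covariate, only the compared groups, and leaving out each library.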

Additional observations from a re-analysis of the deposited data

How the results depend on the processing

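No member was called in any of the 8 comparisons under any of 26 alternatives, in 207 of 207 counts, and the smallest adjusted p was 0.0782, in D150L150 without D15L150 3. The 24 differences of single members followed through the alternatives kept their direction in 620 of 620 values. They were those of the 2 replication and 2 mitosis members with the smallest p in each comparison with Control. Since they were picked by p in these same data, a kept direction was likely from the start. They do not cover all members in all comparisons, and the direction of others did change. Without Control 1 the number of negative mitosis genes went from 18 to 11 in the spacer mean. It went from 17 to 7 in D15L100 and from 11 to 1 in D150L150. The excess of the replication over the mitosis median in the spacer mean, 0.26, lay between 0.233 and 0.344 when each library was left out in turn, and at 0.29 with a pseudocount of 0.1, 0.26 with no filter, 0.255 under quantile scaling, 0.28 under TPM, 0.30 by voom and 0.26 with the muscle covariate. The counts of members wholly outside the Control range had alternatives that were chosen after seeing the data. When libraries were left out, they ran from 9 to 22 in D15L150, with 22 without D15L150 3. In D150L150 they ran from 8 to 17, with 17 without Control 1 and 14 without D150L150 3. Leaving out a library also raised the share of all genes. It was 16.8% to 23.2% below Control in D15L150, against 14% with all libraries in. Above Control in D150L150 it was 16.5% to 21.2%, against 14.3%. A fit on the compared groups alone is the same fit for the spacer mean and was run for the single groups and the series. Over all genes the calls ran, when libraries were left out, from 0 to 597 in the spacer mean, 0 to 239 in D15L150, 0 to 303 in D15L200, 0 to 351 in D100L150 and 0 to 481 in D150L150. Of the other lists, Cdkn2b alone was called under an alternative, in D150L150 without D15L100 2 (adjusted p = 0.0493 in limma).

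With the replicate number as a block, 0 members were called in every comparison and the excess was again 0.26. The numbers did not pair the libraries, since same-numbered libraries of different groups had a median correlation of 0.02 in their deviations (45 pairs, -0.66 to 0.53), as libraries with different numbers did (90 pairs, 0.02). With 3 libraries a group, the standard errors of 0.13 to 0.28 against Control limit what single members can show.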
